A study of Mus musculus with 25 samples.

Results

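Neutrophils sorted from injured mouse muscle 1 day after injury were compared with 4 groups of macrophages sorted from the same muscle at days 2 and 4. The comparison rests on 13 of the 25 samples of the series, which enter as 5 columns of group means over 38087 genes. The neutrophil column held Ly6Ghigh Ly6Cint F4/80- neutrophils at day 1 (3 samples). The macrophage columns held Ly6Chigh F4/80low cells at day 2 (3 samples), Ly6Clow F4/80high cells at day 2 (3 samples), Ly6Chigh F4/80low cells at day 4 (2 samples) and Ly6Clow F4/80high cells at day 4 (2 samples), and values for the 4 macrophage groups are given below in that order. All were from adult male C57BL/6J mice of 2 to 4 months whose tibialis anterior, a shin muscle, had been injected with cardiotoxin (CTX), a venom toxin that destroys fibres. Magnetic beads for CD45, a protein of all leukocytes, came before the flow sort, and poly-A RNA was sequenced. Whether animals were pooled was not stated in the labels. No macrophage column is from day 1 and no neutrophil column is from day 2 or 4, so cell type and time after injury cannot be told apart in any value below. Ly6Chigh cells of day 1 and blood monocytes, with 3 samples each, were not analysed here.

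Neutrophils are short-lived granulocytes that leave the blood for damaged tissue ahead of monocytes. They are drawn by chemokines that bind CXCR2, by formyl peptides and by leukotriene B4, and they carry ready-made granules of antimicrobial proteins and proteases that were filled during their growth in the bone marrow. In injured muscle they clear debris and release signals that recruit monocytes. Those monocytes become Ly6Chigh inflammatory macrophages and then Ly6Clow macrophages, which engulf dying cells and release growth factors while the fibres regenerate.

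A gene was called neutrophil-high when its normalised count in neutrophils was at least 50 and at least 2-fold above the highest of the 4 macrophage columns, with 10 normalised counts added to both sides of the ratio. It was called macrophage-high when the lowest macrophage column was at least 50 and the neutrophil column at least 2-fold below it on the same scale. All folds below are on this scale, which understates the fold of genes with few counts, and all levels are log2 normalised counts unless stated otherwise. The table holds 1 mean per group, so none of the differences could be set against the spread between replicates, and no test, error or p-value can be given. Fewer cells of a type and less RNA per cell cannot be told apart in sorted bulk samples.

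The scale of the neutrophil column needs care. Its normalised counts summed to 26.0 M, against 12.5, 12.6, 11.9 and 12.8 M in the macrophage columns (M, 1000000 normalised counts). Genes at 10000 or more normalised counts numbered 491 in neutrophils and 115 to 146 in macrophages, whereas 10220 genes reached 50 in neutrophils and 10661 to 11376 did so in macrophages. The 1000 most abundant genes took 72.1% of the neutrophil column and 56.0% to 59.9% of the macrophage columns. The calls over all genes and in each gene list are therefore given as deposited and again with the 5 columns scaled to equal totals, which lowers all neutrophil values by 1.06 on the log2 scale. Levels, folds and all other counts below are as deposited. The steps between low values put 1 read at 1.79, 2.24 and 2.33 normalised counts in the 3 neutrophil libraries, so the minimum of 50 stood for 28.0, 22.3 and 21.4 reads.

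The labels of the sort were first checked against marker genes. Of 13 neutrophil markers, 9 were neutrophil-high on both scales, and their summed level was 430250 normalised counts in neutrophils, against 4435, 3177, 3604 and 2766 in the macrophage groups. Ly6g, the antigen used to sort neutrophils, was at 7.20 in neutrophils and listed at 0 in all 4 macrophage groups. The other 4 markers were not called. Camp and Ngp, granule genes of immature neutrophils, were at 3.77 and 5.52 in neutrophils and listed at 0 in macrophages. Mmp8, a collagenase of the granules, was at 10.60 in neutrophils and at 9.33, 10.05, 7.16 and 7.62 in macrophages. Cd177, a surface protein of neutrophils, was at 8.89 in neutrophils and at 10.98, 7.76, 9.08 and 5.44 in macrophages, so that both Ly6Chigh columns lay above the neutrophil column. Of 11 macrophage markers, 9 were macrophage-high as deposited and 11 at equal totals, with sums of 24235 in neutrophils against 101969, 134997, 146184 and 236408 in macrophages. Csf1r, the receptor for macrophage colony-stimulating factor, still stood at 13.42 in neutrophils, against 14.31, 13.86, 14.82 and 15.16 in macrophages, and Emr1, which encodes F4/80, stood at 11.07 against 13.08, 13.80, 13.80 and 14.26.

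Markers of other cells were measured as well, and their part in the results below was not tested. Monocyte markers summed to 6857 normalised counts in neutrophils against 125529, 48646, 59732 and 15646 in macrophages, where 1 of 11 was neutrophil-high and 4 were macrophage-high. T and NK cell markers (15) summed to 181 in neutrophils against 1529 to 3747 in macrophages, B cell markers (6) to 28.2 against 46.2 to 236, and fibroblast markers (10) to 226 against 277, 89.4, 25700 and 1827. Dendritic cell markers (10) summed to 862 against 47.1 to 2662 and skeletal muscle markers (12) to 948 against 309 to 1778. Erythroid and platelet markers (10) summed to 291 against 91.2 to 486. Endothelial markers (8) summed to 4521 in neutrophils against 444 to 1035 in macrophages, almost all from Vwf, the von Willebrand factor gene, at 12.10, while Cdh5 and Cldn5 were at 5.30 and 3.87. Eosinophil, mast cell and basophil markers (11) summed to 5606 in neutrophils against 34.1 to 116, nearly all from Siglec5 at 12.42. This is the mouse gene for the sialic acid lectin Siglec-F, used to mark eosinophils. The defining eosinophil granule genes were listed at 0 (Epx) and at 1.13 (Prg2) in neutrophils, the mast cell gene Cpa3 was at 1.71, and the basophil gene Mcpt8 was listed at 0. The eosinophil receptor gene Ccr3 was at 5.75 in neutrophils against 2.61, 3.80, 3.59 and 4.55, and Kit, a mast cell growth factor receptor, at 6.05 against 2.80, 1.92, 5.84 and 3.02, neither being called. In all, 6 of the 11 lay above all 4 macrophage columns as deposited and 4 at equal totals. Of all genes at 50 or more, 42.2% and 21.9% did so. Only 3 of the 11 reached 50 normalised counts in any column, so these counts are no result about the list.

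As deposited, 2912 of the 12839 genes at 50 or more normalised counts in any column were neutrophil-high (22.7%) and 2414 were macrophage-high (18.8%). With columns scaled to equal totals, 1096 of 12454 genes were neutrophil-high (8.8%) and 4371 were macrophage-high (35.1%). The share of calls that were neutrophil-high was thus 54.7% as deposited and 20.0% at equal totals. Counts in the gene lists below are to be read against 22.7% and 18.8% as deposited, and against 8.8% and 35.1% at equal totals. A count near these shares is no result about its list. These shares are over genes at 50 or more, whereas list counts are out of all members found. Members under 50 in every column cannot be called, so lists that hold such members have understated shares beside these. The median gene had a log2 ratio of -0.39 against the highest and 0.39 against the lowest macrophage column as deposited, and of -1.37 and -0.50 at equal totals. All 1096 of the equal-total calls were also neutrophil-high as deposited, and 2411 of the 2414 macrophage-high genes remained so. The scaling lowers all neutrophil values by nearly the same amount, so this overlap follows almost wholly from the scaling. It is no support for the 1096 and 2411 calls.

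**Figure D1:**
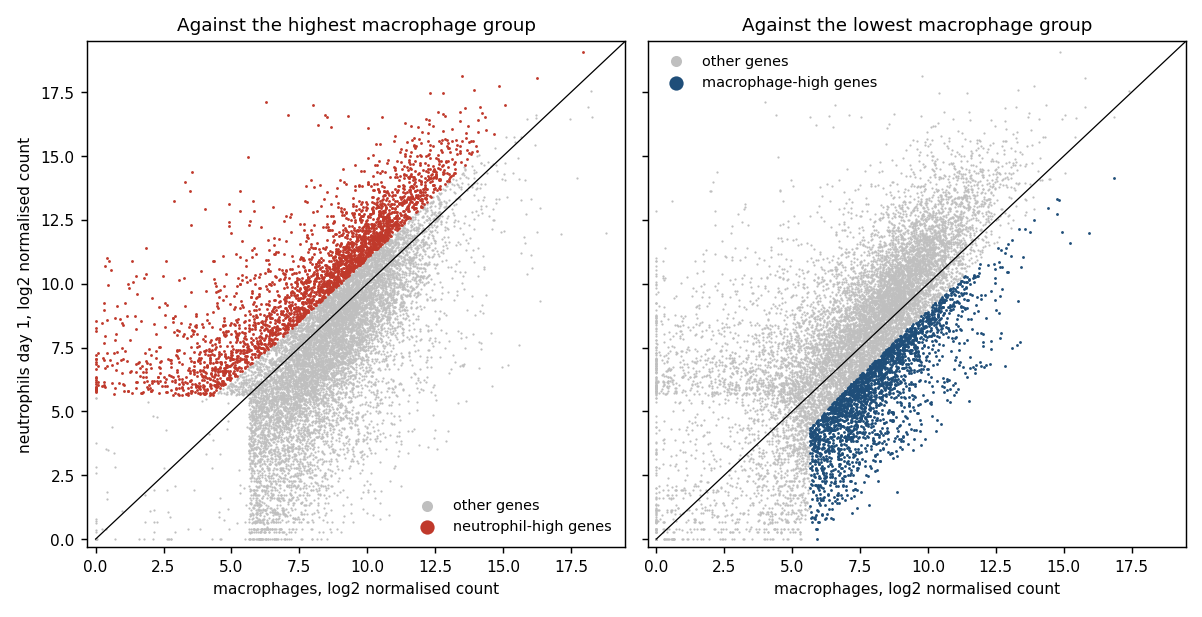
Each dot is a gene at 50 or more normalised counts in some column on either scale; the vertical axis is its log2 normalised count in day 1 neutrophils and the horizontal axis its log2 normalised count in the highest (left) or lowest (right) macrophage group, with the diagonal marking equality. The 2912 neutrophil-high genes (red) and the 2414 macrophage-high genes (blue) are those called as deposited.

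As deposited, the distances were longer on the neutrophil side. Of the neutrophil-high genes, 1272 were at least 4-fold, 213 at least 16-fold and 43 at least 64-fold above the highest macrophage column. Of the macrophage-high genes, 972 were at least 4-fold and 103 at least 16-fold above the neutrophil column, and none reached 64-fold. These fold counts depend on the scale and were made as deposited only. At equal totals some macrophage-high genes passed 64-fold, with log2 ratios to the lowest macrophage column of -6.59 for Sdc3 and -6.58 for C1qb. On the neutrophil side, S100a9 then had a log2 ratio of 9.62 to the highest column. The called genes were also summed in each column. They were picked by these same values as deposited, so the direction of their differences was set by the call and is no finding about RNA content. Neutrophil-high genes took 68.6% of the neutrophil column, against 18.1% to 25.7% of the macrophage columns. Macrophage-high genes took 1.63% of the neutrophil column, against 20.2% to 26.9% of the macrophage columns. In summed normalised counts the neutrophil-high genes held 17.8 M in neutrophils and 2.28 to 3.22 M in macrophages, while genes called in neither direction held 7.74 M against 6.53 to 7.26 M. Just inside the 2-fold limit on the neutrophil side lay Pdcd10 (2.00-fold, 9.31 in neutrophils against at most 8.29), and just outside it lay Pnpla2 (11.55 against at most 10.55). On the macrophage side Clns1a lay just inside, at 7.46 in neutrophils against at least 8.51, and Recql just outside, at 6.28 against at least 7.37.

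**Figure D2:**
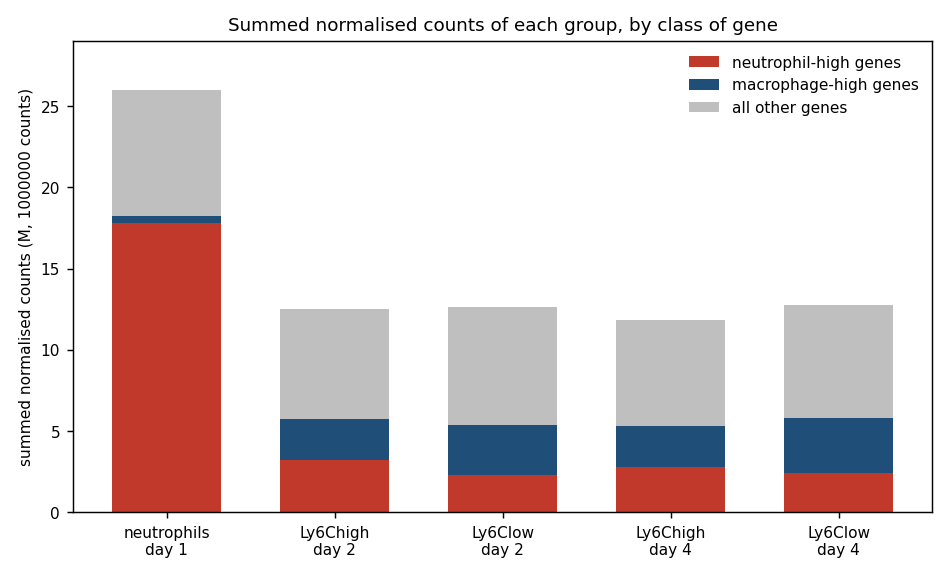
Summed normalised counts (M, 1000000 counts) for each of the 5 groups, split into neutrophil-high genes (red), macrophage-high genes (blue) and all other genes (grey). The neutrophil column reaches 26.0 M, of which 17.8 M belong to neutrophil-high genes, and the macrophage columns reach 11.9 to 12.8 M. The classes were called from these same values as deposited, so the direction of their differences was set by the call.

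The neutrophil column was led by a few transcripts, named here by rank in that column. Counts are not divided by gene length, so the ranks are of reads and not of molecules. Thbs1, for the matrix protein thrombospondin-1, took 2.13% of the column, Il1b, for the cytokine interleukin-1 beta, 1.10% and Fth1, the ferritin heavy chain gene, 1.04%. Next were Cd14, the co-receptor for bacterial lipopolysaccharide, at 0.840%, Plek at 0.767%, Psap at 0.736% and Cxcl2, a chemokine for neutrophils, at 0.706%. Several of these were also among the leading genes of macrophages, as Thbs1 and Psap ranked 1 and 2 in the column where they were highest. S100a9, S100a8 and Csf1, which ranked 9, 19 and 20 in neutrophils, ranked 9840, 8744 and 5880 in the macrophage column where each was highest.

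The gene furthest above macrophages was S100a9 (chr3:90692632-90695721, mm10), and its partner S100a8 (chr3:90668978-90670035) was also among the 4 furthest. They encode the 2 chains of calprotectin, a calcium- and metal-binding alarmin that fills the neutrophil cytosol. S100a9 was at 17.12 in neutrophils, against 6.27, 5.74, 5.14 and 4.01 in the macrophage groups, a 1631-fold distance to the highest. S100a8 was at 16.63 in neutrophils, against 6.48, 7.08, 4.62 and 4.40 in macrophages, which is 697-fold. The macrophage levels were 0.0113% to 0.0543% of the neutrophil level for S100a9 and 0.0208% to 0.134% for S100a8. Because both genes, close together on chromosome 3, lay so far above macrophages, the 300 bases around their starts are printed here, with Lcn2, a granule gene at 148-fold, and C1qb, a complement gene that was among the furthest in the opposite direction. The windows are from RefSeq on GRCm38.p6 and run 5′ to 3′ on the gene's strand, from 250 bases before the start to 50 after it. Capitals mark matches to TTGCNNAA (a C/EBP motif), AGGAAG (an ETS motif bound by PU.1), GGGNNNNNCC (an NF-kB motif), each searched on both strands, and TATAAA (the TATA box, on the gene's strand), and adjoining matches run together.
S100a9 (chr3:90695672-90695971, - strand): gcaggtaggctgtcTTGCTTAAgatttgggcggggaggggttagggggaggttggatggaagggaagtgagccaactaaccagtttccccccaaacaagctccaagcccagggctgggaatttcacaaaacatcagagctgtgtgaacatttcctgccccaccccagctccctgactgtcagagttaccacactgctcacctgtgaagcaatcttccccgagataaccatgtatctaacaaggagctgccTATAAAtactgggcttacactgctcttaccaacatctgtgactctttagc
S100a8 (chr3:90668821-90669120, + strand): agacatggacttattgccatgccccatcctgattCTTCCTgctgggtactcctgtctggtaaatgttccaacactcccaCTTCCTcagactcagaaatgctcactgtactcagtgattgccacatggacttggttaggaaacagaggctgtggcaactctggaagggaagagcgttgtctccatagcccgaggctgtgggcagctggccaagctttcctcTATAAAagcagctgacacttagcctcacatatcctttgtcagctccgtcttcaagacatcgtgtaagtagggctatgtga
Lcn2 (chr2:32387690-32387989, - strand): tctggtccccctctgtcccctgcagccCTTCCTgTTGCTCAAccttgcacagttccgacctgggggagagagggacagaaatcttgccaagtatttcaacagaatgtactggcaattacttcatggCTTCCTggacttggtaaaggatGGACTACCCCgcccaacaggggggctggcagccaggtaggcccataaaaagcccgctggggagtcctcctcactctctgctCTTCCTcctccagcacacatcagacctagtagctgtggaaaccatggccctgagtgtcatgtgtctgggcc
C1qb (chr4:136886151-136886450, - strand): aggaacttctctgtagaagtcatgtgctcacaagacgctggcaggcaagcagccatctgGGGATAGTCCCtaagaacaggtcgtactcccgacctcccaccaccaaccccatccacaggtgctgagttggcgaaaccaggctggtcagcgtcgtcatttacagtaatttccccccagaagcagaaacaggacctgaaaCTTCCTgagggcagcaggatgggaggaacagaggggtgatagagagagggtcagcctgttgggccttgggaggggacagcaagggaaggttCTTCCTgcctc

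The S100a9 window held a C/EBP match and the letters TATAAA from the start base on. The S100a8 window held 2 ETS matches and TATAAA 30 bases before the start. The Lcn2 window held 1 C/EBP, 3 ETS and 1 NF-kB match. The C1qb window held 2 ETS matches and overlapping NF-kB matches with no C/EBP letters. Among the 25 windows of the 21 genes matched from the 25 furthest neutrophil-high genes, 6 held the C/EBP letters (24%), 12 the ETS letters (48%), 16 the NF-kB letters (64%) and 3 the TATA box (12%). The 33 windows of the 22 genes matched from the 25 furthest macrophage-high genes held them in 1 (3.03%), 11 (33.3%), 25 (75.8%) and 3 (9.09%). Over the 11122 windows matched to 8762 of the 12839 genes at 50 or more normalised counts, the shares were 8.61%, 34.6%, 67.0% and 4.38%, and over the 2648 windows matched to 2024 of the 2912 neutrophil-high genes they were 8.91%, 37.4%, 68.0% and 4.80%. The C/EBP share of the furthest 25 was thus not seen over all neutrophil-high genes, and their NF-kB share lay below that of all genes at 50 or more. Over all 32851 windows of the table the shares were 10.8%, 35.4%, 50.8% and 8.32%. These are matches of letters and do not show that a factor binds there. The TATA box letters were counted anywhere in a window, as in Sulf2, a macrophage-high gene, 244 bases before the start. The NF-kB letters leave many bases free and were in most windows, so their shares say little about NF-kB sites.

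The other genes among the 25 furthest neutrophil-high ones were of several kinds. Il1f9, now named Il36g, encodes an interleukin-1 family cytokine and stood 966-fold above the highest macrophage group, at 14.37 in neutrophils against 3.57, 3.13, 3.02 and 2.25. Cxcr2 (chr1:74153989-74161246), the receptor through which CXC chemokines draw neutrophils, was at 13.97 in neutrophils against 3.28, 2.59, 3.10 and 2.08 in macrophages, or 815-fold. All 4 macrophage groups lay near the floor for both genes. Enzyme genes were Irg1 (now Acod1, which makes itaconate) at 494-fold, Rdh12 (a retinol dehydrogenase) at 300-fold, Hdc (histidine decarboxylase, which makes histamine) at 250-fold, Entpd3 (an ectonucleotidase) at 199-fold, and the proteases Asprv1 at 598-fold and Mmp9 at 255-fold. G0s2, an inhibitor of the triglyceride lipase ATGL, was at 14.95 in neutrophils against 4.50 to 5.62 in macrophages, or 536-fold. Receptors and surface proteins were Il1r2, Niacr1 (the nicotinic acid receptor) at 172-fold, the Mas-related receptors Mrgpra2a and Mrgpra2b at 166-fold and 184-fold, Cd101 at 148-fold and Siglec5 at 137-fold. Rab15, a small GTPase, was at 235-fold and Mreg, melanoregulin, at 222-fold. AC123702.1, at 257-fold, shares exonic bases with 4833407H14Rik and its reads may belong to either. Mrgpra2a and Mrgpra2b are near-identical, as are several stefin and Bcl2a1 genes below, and the labels do not say how the counting split such reads.

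**Figure D3:**
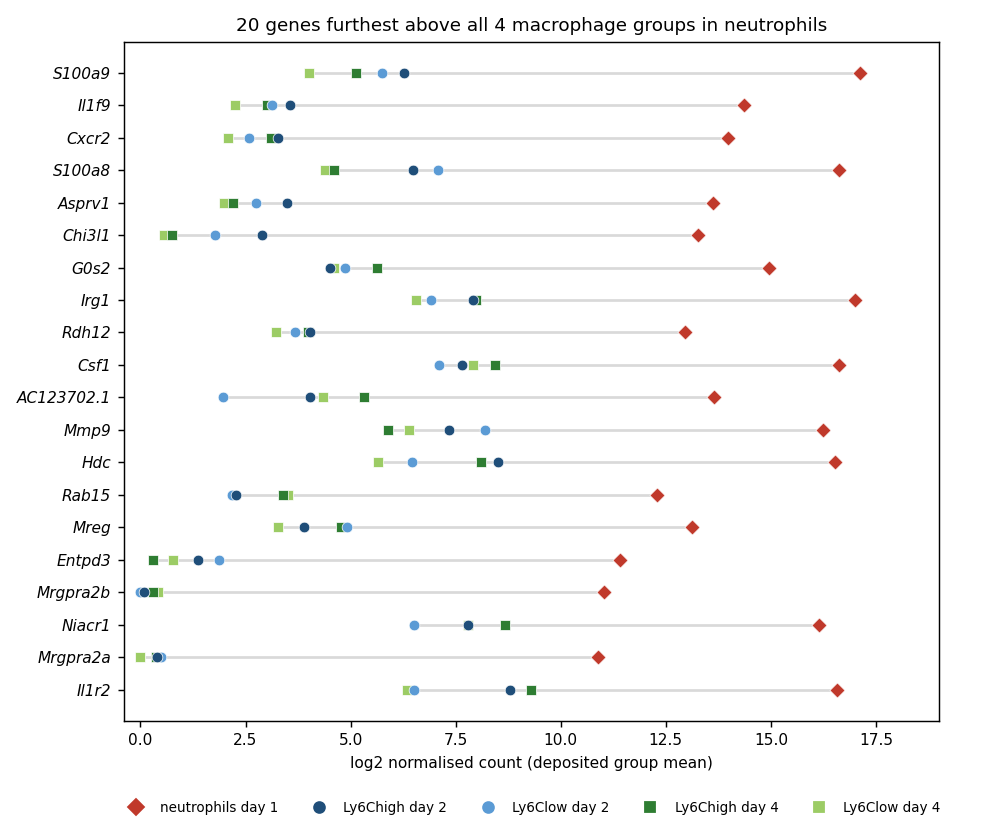
Log2 normalised counts of the 20 neutrophil-high genes furthest above the highest macrophage group, with 1 point per group mean: neutrophils at day 1 as red diamonds, macrophages of day 2 as circles and of day 4 as squares. The neutrophil points lie between 10.87 and 17.12, and all macrophage points lie at or below 9.28.

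The granule classes differed from each other. Primary granule proteins, which are made earliest in neutrophil growth, had 0 of 8 members neutrophil-high and 1 macrophage-high on both scales, and 3 of the 8 reached 50 normalised counts in any column. The macrophage-high member was Ctsc, a protease that activates others, at 11.38 in neutrophils against 12.87 to 14.09 in macrophages. Secondary granule proteins had 6 of 14 neutrophil-high and 3 macrophage-high on both scales. Chi3l1, a chitinase-like protein, was 562-fold above macrophages. Ltf, for iron-binding lactoferrin, was at 10.90 in neutrophils against 0.69, 0.25, 0.38 and 1.33, or 154-fold. Lcn2, which binds bacterial iron carriers, was at 12.84 against 5.30, 1.40, 1.84 and 0.00. Olfm4, olfactomedin 4, was at 8.54 in neutrophils and listed at 0 in all 4 macrophage groups. The macrophage-high members were the lysozyme genes Lyz2, at 14.13 in neutrophils against 16.84 to 17.73, and Lyz1, at 10.66 against 13.44 to 14.30, and Cybb, a subunit of the oxidase, at 10.58 against 12.46 to 14.31. Tertiary granule and secretory vesicle proteins, the last to be made, had 12 of 19 neutrophil-high as deposited and 9 at equal totals, with none macrophage-high. Mmp9, the gelatinase that cuts basement membrane collagen, was at 16.23 in neutrophils against 7.34, 8.19, 5.89 and 6.39. The formyl peptide receptor Fpr1 was 63.0-fold and haptoglobin (Hp) 7.51-fold above macrophages.

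S100 alarmins and cystatin-type inhibitors had 9 of 19 neutrophil-high and 2 macrophage-high as deposited, and 7 and 4 at equal totals. The stefins, inhibitors of cysteine proteases, were near or at 0 in macrophages. Stfa2l1 was at 10.71 in neutrophils with no macrophage group above 0.34, and Gm5483 was at 10.53 with none above 0.57. Slpi, an inhibitor of serine proteases, was 19.6-fold above macrophages. S100a4 and S100a10 went the other way, at 8.77 in neutrophils against 10.56 to 13.95 and at 7.76 against 10.30 to 12.50. Over proteases and their inhibitors, 7 of 25 were neutrophil-high and 4 macrophage-high as deposited, against 5 and 9 at equal totals. Among them Plaur, the urokinase receptor, was 4.56-fold higher in neutrophils, while the membrane metalloprotease Mmp14 was at 7.89 in neutrophils against 10.89 to 12.49, or 7.68-fold lower, and the elastase Mmp12 was 6.59-fold lower.

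Among receptors for chemoattractants, 13 of 21 were neutrophil-high and 5 macrophage-high as deposited, and 11 and 5 at equal totals. Their median log2 ratio to the highest macrophage column was 2.09, against -0.39 over all genes at 50 or more. Cxcr1, the partner of Cxcr2, was at 9.98 in neutrophils with no macrophage group above 1.18. Gpr84, a receptor for medium-chain fatty acids, was 46.7-fold and Fpr2, which binds formyl peptides and lipoxin A4, 23.9-fold above macrophages, at 12.33 in neutrophils against 7.69, 4.67, 7.24 and 5.93. C5ar1, the receptor for the complement fragment C5a, was 4.26-fold higher in neutrophils. The receptors on the other side were those by which monocytes are drawn. Ccr2 was at 7.92 in neutrophils against 13.39, 10.41, 13.65 and 11.50 in macrophages, and was higher in both Ly6Chigh groups than in the Ly6Clow groups. Cx3cr1, the fractalkine receptor, was 12.1-fold lower in neutrophils, Cmklr1, the chemerin receptor, 12.5-fold lower, and C3ar1, for C3a, 26.4-fold lower. The leukotriene B4 receptor Ltb4r1 was not called, since the neutrophil level of 10.48 was 1.72-fold above the 9.69 of day 2 Ly6Chigh cells, the other macrophage groups being at 6.55, 7.42 and 4.46.

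Receptors for growth factors and cytokines had 14 of 26 neutrophil-high and 2 macrophage-high as deposited, against 9 and 3 at equal totals. Il1r2, a decoy that binds interleukin-1 without signalling, was at 16.58 in neutrophils against 8.80, 6.52, 9.28 and 6.34, or 155-fold. Il1rap, the shared chain of interleukin-1 receptors, was 29.7-fold and Tnfrsf23, a decoy receptor for TRAIL, 41.8-fold above macrophages. Csf3r, the receptor for the granulocyte growth factor G-CSF, was at 16.28 in neutrophils against 10.42, 10.36, 11.40 and 11.21, so macrophages held 1.65% to 3.39% of its level. Il6st, the shared gp130 chain of interleukin-6 receptors, was 18.9-fold lower in neutrophils, at 5.44 against 9.97 to 10.49, and Il3ra was 6.08-fold lower.

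Cytokine genes had 12 of 26 neutrophil-high and 1 macrophage-high as deposited, and 10 and 3 at equal totals. Csf1 (chr3:107741048-107760469), for macrophage colony-stimulating factor, was at 16.62 in neutrophils against 7.64, 7.11, 8.44 and 7.91, or 282-fold. Il23a, a subunit of interleukin-23, was at 10.90 against at most 2.60, and Il1a was 64.0-fold above macrophages. Il1rn, the natural antagonist of interleukin-1, was high too, at 17.47 in neutrophils against 11.45 to 12.78. The macrophage-high member was Tnfsf12, for the TNF-like cytokine TWEAK, at 5.74 in neutrophils against 10.19 to 10.91.

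The CXC family had 3 of 13 members neutrophil-high and 2 macrophage-high as deposited, and 2 of each at equal totals. Cxcl2 was at 17.49 in neutrophils against 12.33, 11.43, 10.42 and 10.80 (35.7-fold) and Cxcl3 at 14.07 against 9.0, 7.86, 6.74 and 6.87 (32.9-fold). Both bind CXCR2, and in both the day 2 Ly6Chigh group was the highest macrophage group. Cxcl1 was 2.90-fold higher in neutrophils and was not called at equal totals. Pf4 and Cxcl16 were lower in neutrophils by 6.99-fold and 2.55-fold. The CC family had 2 of 14 neutrophil-high and 5 macrophage-high as deposited, and 2 and 6 at equal totals. Ccl3 and Ccl4, which encode the inflammatory chemokines MIP-1 alpha and MIP-1 beta, were 26.7-fold and 15.6-fold higher in neutrophils. The monocyte chemoattractants were on the macrophage side, with Ccl12 at 2.46 in neutrophils against 7.81 to 8.68, Ccl7 at 7.18 against 10.30 to 11.95, Ccl8 at 0.95 against 6.12 to 10.80, and Ccl2 at 9.39 against 10.55 to 12.48.

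Enzymes of eicosanoid synthesis, which turn arachidonic acid into prostaglandins and leukotrienes, had 9 of 33 members neutrophil-high and 5 macrophage-high as deposited, and 6 and 9 at equal totals, with 27 of the 33 at 50 or more normalised counts in some column. Out of those 27, the 5 macrophage-high members as deposited were near the 18.8% of all genes at 50 or more. The 9 neutrophil-high members were above the 22.7%. Alox5, the 5-lipoxygenase, was at 12.34 in neutrophils against 6.91, 7.54, 6.74 and 7.22 in macrophages, or 26.4-fold. Its helper protein Alox5ap was at 13.89 in neutrophils against 13.13, 12.65, 12.53 and 12.16 and was not called. Lta4h, which makes leukotriene B4, was at 9.04 in neutrophils, below all 4 macrophage groups at 9.95, 9.87, 9.50 and 9.68, and passed the 2-fold limit at equal totals but not as deposited. Ltc4s, which makes leukotriene C4, was at 6.56 against 3.31, 6.08, 5.84 and 7.28, and Alox15 was at 2.71 in neutrophils. Ggt1, which trims leukotriene C4 to D4, was at 8.47 in neutrophils with no macrophage group above 0.25, whereas Dpep2, which takes the next step to leukotriene E4, was 5.03-fold lower in neutrophils. Steps of 1 pathway thus lay on different sides.

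For prostaglandins, both cyclooxygenases were neutrophil-high. Ptgs2, the inducible enzyme, was at 16.72 in neutrophils against 12.59, 10.91, 11.24 and 10.58, or 17.4-fold. Ptgs1, the constitutive enzyme, was at 12.38 against 5.22, 6.37, 7.19 and 8.74, or 12.2-fold; among macrophages it was lowest in day 2 Ly6Chigh and highest in day 4 Ly6Clow cells. Members called macrophage-high were Tbxas1, thromboxane synthase, 4.36-fold lower in neutrophils, Hpgds, a prostaglandin D2 synthase, 2.06-fold lower, Akr1b3, an aldose reductase, 14.9-fold lower, and Hpgd, which degrades prostaglandins, 4.38-fold lower. They are named for their call and do not stand for all enzymes downstream of the cyclooxygenases. Of the receptors for lipid mediators, 4 of 20 were neutrophil-high and 1 macrophage-high as deposited, and 2 and 1 at equal totals, with 13 of the 20 at 50 or more in some column. Ptafr, for platelet-activating factor, was at 15.23 in neutrophils against 11.78 to 12.72, or 5.67-fold. Gpr18, a receptor for resolvin D2, was at 1.57 in neutrophils against 3.60, 0.54, 7.12 and 4.95, so that neutrophils and day 2 macrophages were near the floor.

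Sensors of microbes and damage had 20 of 35 neutrophil-high and 3 macrophage-high as deposited, and 13 and 4 at equal totals. Nlrp12, a Nod-like receptor, was at 10.22 in neutrophils with no macrophage group above 1.78. Nlrp3, which forms an inflammasome, was at 16.16 against 10.20 to 11.63, or 23.1-fold. Nfkbiz, an NF-kB cofactor, was 16.5-fold and Tlr6 12.3-fold above macrophages. On the other side were Casp1, the protease that the NLRP3 inflammasome activates, at 6.79 in neutrophils against 8.83 to 9.42, and Tlr7 and Tlr8, endosomal sensors of RNA, which were 7.22-fold and 3.62-fold lower in neutrophils.

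Lectin-type and Fc receptors split into opposite sets, with 16 of 35 neutrophil-high and 11 macrophage-high as deposited, and 12 and 11 at equal totals. Trem1, which amplifies inflammatory signals, was at 16.51 in neutrophils against 10.53, 8.25, 9.47 and 7.55, or 63.0-fold. Clec5a was 17.7-fold, Clec4d 15.1-fold and Clec4e, also called Mincle, 14.5-fold above macrophages. The mannose receptor gene Mrc1 was at 6.86 in neutrophils against 12.29 to 13.57 (40.0-fold lower), Trem2, a lipid sensor, at 6.82 against 11.78 to 13.50 (28.7-fold lower), and Fcgr1, the high-affinity IgG receptor, at 7.77 against 12.33 to 13.02 (22.6-fold lower). Siglec1 and the scavenger receptor Msr1 were 17.6-fold and 13.9-fold lower.

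Adhesion molecules had 16 of 28 neutrophil-high and 3 macrophage-high as deposited, and 8 and 5 at equal totals. Itgb2l, a homologue of the beta 2 integrin gene, was at 8.26 in neutrophils and listed at 0 in all 4 macrophage groups. Itgb3 was 34.4-fold, Itgae 28.8-fold and Icam1 11.8-fold above macrophages, while the integrin genes Itga9, Itga6 and Itgb5 were 14.3-fold, 6.67-fold and 4.82-fold lower in neutrophils. Survival and cell death genes had 16 of 32 neutrophil-high and 3 macrophage-high as deposited, and 9 and 7 at equal totals. The anti-apoptotic genes Bcl2a1a, Bcl2a1d and Bcl2a1b were 12.3-fold, 9.48-fold and 7.77-fold and the inhibitor of apoptosis Birc3 7.02-fold above macrophages. The death receptor gene Fas was also neutrophil-high, at 11.15 against 6.03 to 6.93. Mlkl, which executes necroptosis, was at 4.70 in neutrophils against 7.73 to 8.27.

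The oxidase that makes superoxide had subunits on both sides. Over its list, 7 of 17 genes were neutrophil-high and 3 macrophage-high as deposited, and 3 and 5 at equal totals. The cytosolic subunits Ncf1 and Ncf4 were 7.03-fold and 5.07-fold and the GTPase Rac2 5.40-fold above macrophages. The membrane subunit Cybb was 3.65-fold lower in neutrophils and catalase (Cat), which breaks down hydrogen peroxide, 4.67-fold lower. Padi4, which citrullinates histones in neutrophil extracellular traps, was at 11.25 in neutrophils against 9.29, 9.07, 7.08 and 7.13, and Padi2 was 6.01-fold lower in neutrophils.

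Transcription factors of the granulocyte and macrophage lines had 11 of 32 neutrophil-high and 9 macrophage-high as deposited, and 8 and 10 at equal totals. Gfi1, a repressor needed for neutrophil development, was at 8.79 in neutrophils against 2.37, 0.00, 2.56 and 1.21, and Cebpe, needed for secondary granules, at 8.57 against 5.15, 3.49, 3.24 and 3.15. The immediate early genes Egr1 and Nr4a1 were 16.1-fold and 7.0-fold above macrophages. The macrophage side held Irf8, which favours monocytes over granulocytes, at 5.75 against 11.05 to 12.35 (33.4-fold lower), and Pparg and Maf, which were 22.6-fold and 20.5-fold lower. Cebpa, a factor of both lines, was 11.1-fold lower.

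**Figure D4:**
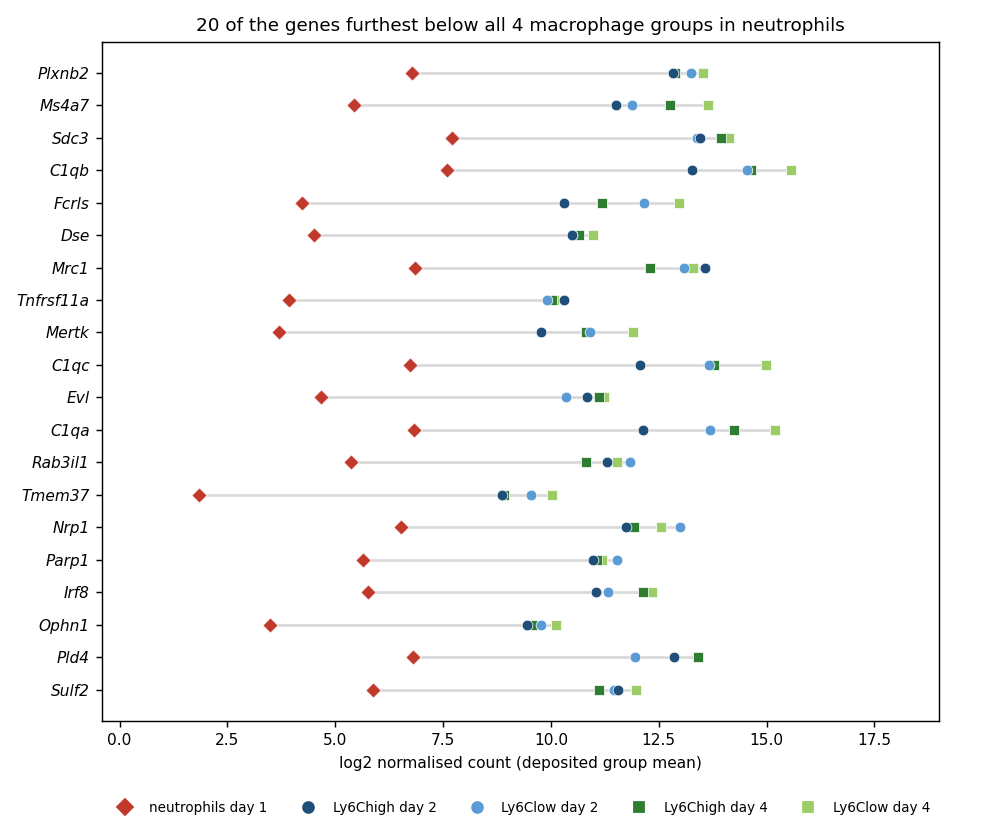
Log2 normalised counts of 20 of the macrophage-high genes furthest above neutrophils, with 1 point per group mean: neutrophils at day 1 as red diamonds, macrophages of day 2 as circles and of day 4 as squares. The neutrophil points lie between 1.85 and 7.71, and all macrophage points lie at or above 8.86.

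The gene furthest below macrophages was Plxnb2 (chr15:89155549-89180788), a plexin receptor for semaphorins. It was at 6.77 in neutrophils against 12.82, 13.26, 12.87 and 13.53, or 60.9-fold lower. It was followed by Ms4a7, a tetraspanning membrane protein of macrophages, at 55.6-fold, and Sdc3, a syndecan that shares exonic bases with Gm12970 and Gm26716, at 49.0-fold. The 3 chains of C1q, the opening protein of the classical complement pathway, were among the 25: C1qb (chr4:136880129-136886187) was at 7.59 in neutrophils against 13.27, 14.54, 14.64 and 15.58, C1qc at 6.72 against 12.07 to 14.98, and C1qa at 6.83 against 12.13 to 15.19. In each the day 2 Ly6Chigh group was the lowest and the day 4 Ly6Clow group the highest of the macrophage groups. Others were Fcrls, an Fc receptor-like gene (44.2-fold), Dse, an epimerase of dermatan sulfate (44.0-fold), Tnfrsf11a, for RANK (38.4-fold), Mertk (38.2-fold), Nrp1, neuropilin-1 (34.0-fold), and Parp1, a DNA repair enzyme (33.6-fold). Within the 25 the neutrophil level ran from 1.85 for Tmem37 to 7.71 for Sdc3.

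Genes for the engulfment of dying cells had 6 of 29 neutrophil-high and 14 macrophage-high as deposited, and 3 and 15 at equal totals. Mertk, a receptor for cells that expose phosphatidylserine, was at 3.69 in neutrophils against 9.76, 10.90, 10.82 and 11.90. The neutrophil-high members were led by Itgb3, Cd300lf at 12.3-fold and Tgm2, transglutaminase 2, at 6.84-fold. Complement genes had 8 of 24 in each direction as deposited, and 2 neutrophil-high against 8 macrophage-high at equal totals. C3, the central component, was at 15.24 in neutrophils against 12.20, 9.20, 12.30 and 11.14, or 7.70-fold higher.

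Genes of lipid handling had 4 of 26 neutrophil-high and 11 macrophage-high as deposited, and 2 and 12 at equal totals. Lpl, lipoprotein lipase, was at 6.70 in neutrophils against 11.57 to 14.10 (26.7-fold lower), Apoe at 11.99 against 15.95 to 18.80 (15.5-fold lower) and the fatty acid transporter Cd36 at 7.67 against 11.13 to 14.20 (10.5-fold lower). Besides G0s2, the oxidised lipoprotein receptor Olr1 was 25.6-fold higher in neutrophils as deposited and was called on both scales. Growth and repair factors had 3 of 21 neutrophil-high and 8 macrophage-high as deposited, and 0 and 9 at equal totals. Igf1, a growth factor for muscle fibres, was at 3.38 in neutrophils against 7.46, 10.80, 9.75 and 11.50, and Gdf3 at 3.47 against 8.23 to 9.30. Vegfa, an angiogenic factor, was 3.39-fold and Thbs1 2.18-fold higher in neutrophils as deposited, and neither was called at equal totals.

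MHC class II presentation had 1 of 16 neutrophil-high and 6 macrophage-high as deposited, and 1 and 8 at equal totals. Cd80, a costimulatory ligand, was the neutrophil-high member, at 12.57 in neutrophils against 7.18 to 9.23. The costimulatory receptor Cd40 was at 3.76 against 8.33 to 9.99, H2-DMa, which loads peptides, at 5.85 against 9.30 to 12.06, and Ifi30, a lysosomal thiol reductase, was 8.49-fold lower in neutrophils. Lysosome genes had 7 of 38 neutrophil-high and 8 macrophage-high as deposited, and 0 and 16 at equal totals. The protease Lgmn was at 11.61 in neutrophils against 15.22 to 15.80 (12.2-fold lower), and the glycosidase Glb1 was 8.78-fold lower. Gla, another glycosidase, was 4.06-fold higher in neutrophils as deposited.

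Iron and heme genes had 8 of 24 neutrophil-high and 5 macrophage-high as deposited, and 5 and 8 at equal totals. Besides Lcn2, Ltf and Hp, the metalloreductase Steap4 was at 11.32 in neutrophils against 3.04, 1.84, 6.38 and 4.46. Its relative Steap3 was 20.2-fold lower in neutrophils, Aco1, an iron-sensing aconitase, 10.1-fold lower, and Cd163, the receptor for haemoglobin and haptoglobin, 6.29-fold lower.

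Of 77 cytoplasmic ribosomal protein genes, 0 were neutrophil-high and 54 macrophage-high as deposited, and 75 were macrophage-high at equal totals. Their median log2 ratio was -1.30 against the lowest macrophage column, where all genes at 50 or more had 0.39, and 75 of 77 lay below all 4 macrophage columns as deposited. Rps4x was 10.2-fold, Rpl36a 5.99-fold and Rps18 5.52-fold lower in neutrophils. Ribosomal protein genes have many processed pseudogenes, so their reads are uncertain. Translation factors had 2 of 36 neutrophil-high and 7 macrophage-high as deposited, a share near the 18.8% of all genes, and 2 and 21 at equal totals. The initiation factors Eif5 and Eif1 were 4.82-fold and 4.38-fold higher in neutrophils and stayed called at equal totals, while Eif3e, a subunit of the initiation factor eIF3, was 6.45-fold lower.

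Oxidative phosphorylation had 0 of 54 neutrophil-high and 22 macrophage-high as deposited, and 47 macrophage-high at equal totals. The complex I subunits Ndufa5, Ndufc2 and Ndufa9 were 10.2-fold, 9.27-fold and 7.19-fold lower in neutrophils. The citrate cycle and mitochondrial import had 0 of 33 neutrophil-high and 12 macrophage-high as deposited, and 25 macrophage-high at equal totals, with the enzymes Idh2, Fh1 and Mdh1 lower in neutrophils by 10.0-fold, 9.73-fold and 9.70-fold. As deposited, sugar use lay on the neutrophil side, with 12 of 32 genes of glycolysis and glycogen neutrophil-high and 0 macrophage-high, but 4 and 5 at equal totals. The 4 neutrophil-high members that held on both scales were the glucose transporter Slc2a3, at 13.79 in neutrophils against 8.03, 6.63, 7.25 and 6.05 (52.4-fold), the hexose transporter Slc2a6 (21.7-fold), glycogen phosphorylase Pygl (8.61-fold) and the lactate exporter Slc16a3 (6.45-fold). Hypoxia response genes had 7 of 20 neutrophil-high and 0 macrophage-high as deposited, but 1 and 3 at equal totals. The lipid droplet gene Hilpda was 5.49-fold higher in neutrophils, at 13.81 against 11.33, 11.35, 9.39 and 11.01.

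Cell cycle genes had 2 of 45 neutrophil-high and 8 macrophage-high as deposited, and 0 and 13 at equal totals. The replication helicase subunits Mcm3 and Mcm6 were at 3.39 and 4.15 in neutrophils, against 8.69 to 10.28 and 8.29 to 10.57 in macrophages, and cyclin D1 (Ccnd1) was 12.3-fold lower in neutrophils. Interferon response genes did not line up, with 9 of 47 neutrophil-high and 4 macrophage-high as deposited, and 2 and 6 at equal totals. Slfn4, a Schlafen gene, was at 16.27 in neutrophils against 11.49, 8.57, 12.28 and 9.18, and Ifitm1 was 23.4-fold higher in neutrophils. The antiviral genes Mx1 and Bst2 were 12.7-fold and 5.90-fold lower in neutrophils, Mx1 being at 3.81 against 10.09, 8.20, 11.04 and 10.12.

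**Figure D5:**
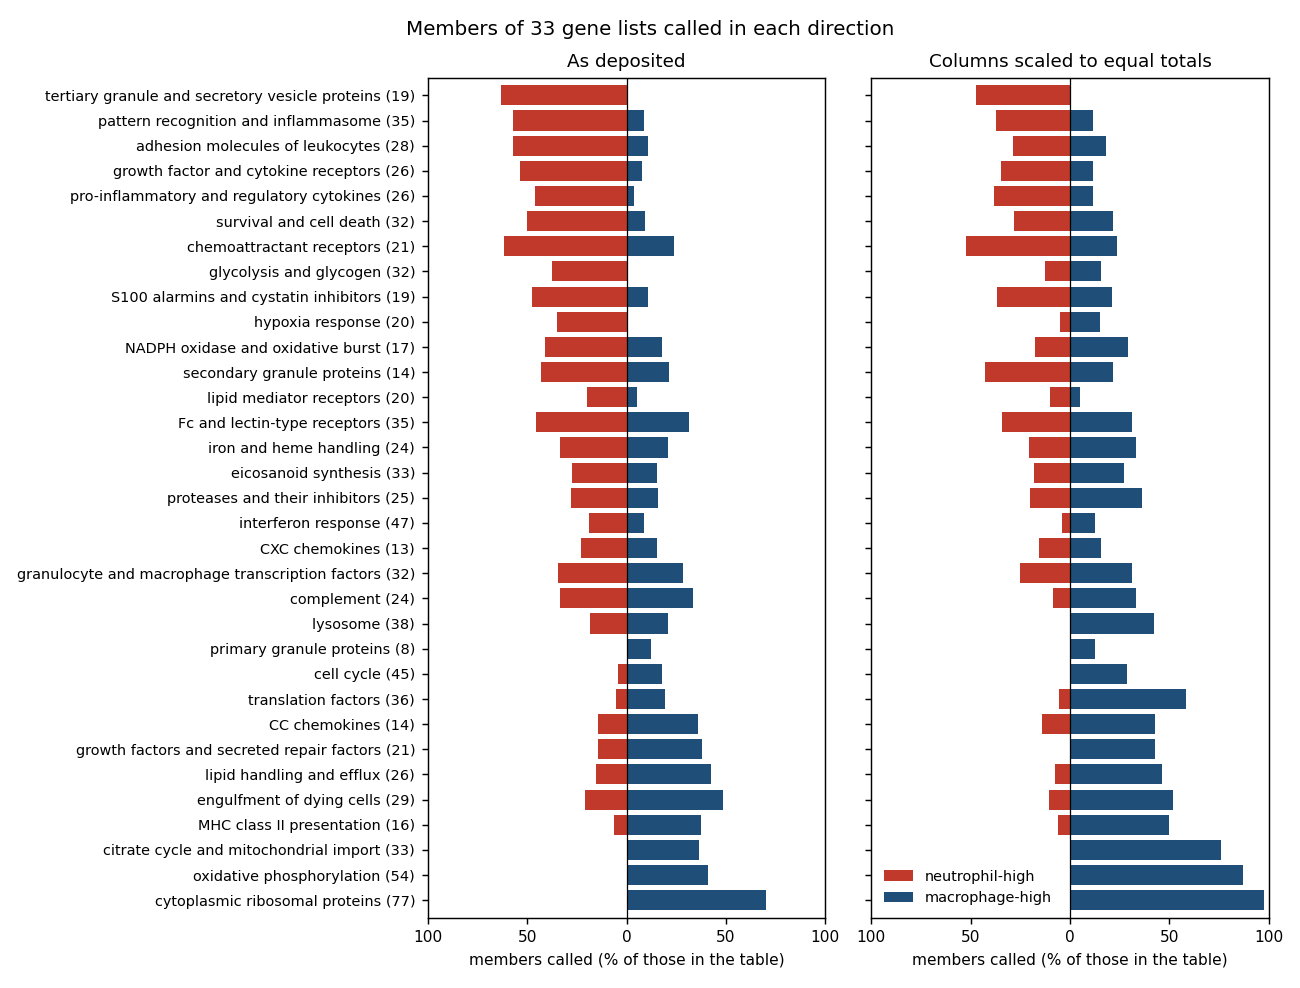
For each of 33 gene lists (number of genes found in the table in brackets), the percentage of members that were neutrophil-high (red, to the left) and macrophage-high (blue, to the right), as deposited and with the 5 columns scaled to equal totals. Ribosomal protein and oxidative phosphorylation genes have 0 neutrophil-high members in both panels, and tertiary granule proteins have 0 macrophage-high members in both. Percentages are of all members found, and those under 50 normalised counts in every column cannot be called.

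List medians are over every member found, also those under 50 normalised counts in all columns, which pulls some lists towards 0. Set beside all genes at 50 or more, whose median log2 ratio to the highest macrophage column was -0.39 as deposited, 10 lists had a median above 0.40: chemoattractant receptors (2.09), secondary granule proteins (1.86), pattern recognition (1.49), tertiary granule proteins (1.44), S100 and cystatin genes (1.42), cytokine receptors (1.40), adhesion molecules (1.16), cytokines (1.05), survival genes (0.85) and glycolysis (0.45). Against the lowest macrophage column, where all genes at 50 or more had 0.39, 5 lists had a median under -0.20: ribosomal proteins (-1.30), oxidative phosphorylation (-0.88), the citrate cycle (-0.74), translation factors (-0.27) and the cell cycle (-0.24). The other 18 lists had medians of -4.41 to 0.18 against the highest and of -0.05 to 1.61 against the lowest column. MHC class II presentation had the widest gap between its medians, at -4.41 and -0.05.

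For called genes, the macrophage group nearest to neutrophils was counted gene by gene. For neutrophil-high genes the highest macrophage group was Ly6Chigh at day 2 in 36.5% and at day 4 in 36.3%, and Ly6Clow at day 2 in 8.72% and at day 4 in 18.4%. Over all 12839 genes those shares were 28.2% and 22.7% for Ly6Chigh and 25.2% and 23.9% for Ly6Clow. For macrophage-high genes the lowest macrophage group was Ly6Chigh at day 2 in 32.4% and at day 4 in 32.3%, and Ly6Clow in 16.4% and 18.8%, against 27.5% and 21.2% for Ly6Chigh and 27.9% and 23.4% for Ly6Clow over all genes. A Ly6Chigh group was thus the highest one for neutrophil-high genes, and the lowest one for macrophage-high genes, more often than over all 12839 genes. Over all genes the highest or lowest group need not be the nearest to neutrophils. No replicate values back these shares.

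In kind and position, 84.0% of neutrophil-high genes found in the annotation were protein coding, against 80.7% of macrophage-high genes and 84.3% of all. Long non-coding genes made up 8.23% of the neutrophil-high, 1.00% of the macrophage-high and 3.56% of all, and pseudogenes 7.14%, 18.3% and 11.9%. The classes passed unlike filters, as neutrophil-high genes had to reach 50 in 1 column and macrophage-high genes in all 4 macrophage columns. In 671 neutrophil-high genes the highest macrophage column was under 50. What part of these differences comes from the filters was not tested. Protein-coding neutrophil-high genes spanned a median of 30.0 kb with 10 exons, against 21.4 kb with 9 exons for macrophage-high genes and 24.0 kb with 9 exons for all. Among genes with a non-overlapping gene at 50 or more normalised counts within 50 kb, 55.2% of neutrophil-high genes had a neutrophil-high neighbour, against 41.6% of all genes, and 42.4% of macrophage-high genes had a macrophage-high neighbour, against 34.5% of all. Libraries of this kit do not mark strand, so antisense and overlapping genes share reads. Unbroken runs of neutrophil-high genes included 9 on chromosome 7 (chr7:3711409-3915503), among them the paired immunoglobulin-like receptors Lilrb3, Pira2 and Lilra6. Another 9 lay on chromosome 8 (chr8:71908635-72224418), from Zfp617 to Fam32a, and 7 on chromosome 17 (chr17:48125605-48327024) with Trem1, Trem3, Treml4 and Treml2. A run of 7 on chromosome 2 held Il1a and Il1b and a run of 6 on the same chromosome held Il1f9 and Il1rn. On the macrophage side the longest run was of 8 genes on chromosome 17 (chr17:34950238-35016322) with Hspa1b, Hspa1a and Hspa1l. Runs of 6 lay on chromosomes 6, 8 and 2, and a run of 5 on chromosome 4 included C1qb, C1qc and C1qa. The members of each run were named for their place, after the values were seen.

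Macrophages grown from bone marrow with M-CSF (BMDM) gave a second set of macrophage levels, in 3 untreated libraries whose table was normalised separately from the muscle table. Of the 25 furthest neutrophil-high genes, 17 were under 50 normalised counts in all 3 libraries and 6 at or above 50 in all 3. All 25 of the furthest macrophage-high genes were at or above 50 in all 3. Over all calls, 2100 of the 2912 neutrophil-high genes and 2347 of the 2414 macrophage-high genes were at or above 50 in all 3. Macrophage-high genes had to reach 50 in all 4 muscle macrophage columns, neutrophil-high genes in the neutrophil column alone. In 671 neutrophil-high genes the highest muscle macrophage column was under 50. The difference between these counts thus follows largely from the rule and is no support for the calls. The same counts over all genes were not made. Cxcr2 was at 4.59 ± 1.02, Il1f9 at 3.84 ± 1.09 and Il1r2 at 0.97 ± 0.84, whereas S100a9 was at 11.17 ± 0.96, S100a8 at 10.12 ± 0.84, Ltf at 10.55 ± 0.89 and Lcn2 at 9.24 ± 0.89 (SD, n = 3). Ngp, which was at 5.52 in muscle neutrophils, was at 11.09 ± 0.91 in BMDM. Library by library, S100a9 was at 10.31, 10.99 and 12.21, Ltf at 9.74, 10.40 and 11.50 and Ngp at 10.29, 10.91 and 12.08, with the same library highest for all 3 genes. Csf1 was at 14.11 ± 0.10 in these cells, against at most 8.44 in the muscle macrophage groups. C1qb was at 13.41 ± 0.14.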

How the data were processed

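RNA-seq of sorted muscle cells was used as 1 table of log2 normalised counts, which the authors deposited as a mean per group. Of 38087 genes, 2 values were read as dates and left missing. The submitters' processing notes name TopHat2 2.0.7, DESeq and mm10, without their roles. For the annotation, nothing is given in the sources used here. Library totals are not part of the table, so depth was read only from the steps between low values, and intervals for counting error could not be given. A second table of log2 values, deposited by the authors per library for cultured macrophages, gave levels only.

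Values were turned back to normalised counts, 10 was added, and each neutrophil value was divided by the highest or lowest macrophage value, as deposited and with columns at equal totals. The 25 furthest genes each way, up to 5 called genes per list and direction, a fixed set of sorting and eicosanoid genes, all markers and the 5 genes nearest each side of the threshold were named, plus genes chosen by share or place where stated. Members and lists were chosen with earlier results of these data known. Gene positions are from GENCODE M21 (mm10), which held 95.3% of the IDs, and promoter windows are from RefSeq (GRCm38.p6). The calls were checked on simulated data, with Python 3.11.15, numpy 2.4.6, pandas 2.3.3 and matplotlib 3.10.9. Samples treated with resolvin D2 were not used here. A few named genes are not reported here.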

Additional observations from a re-analysis of the deposited data

How the results depend on the processing

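The neutrophil-high and macrophage-high counts (2912 and 2414) moved by more than 1.5 times under scaling to equal totals (1096 and 4371), under equal totals without the 50 most abundant genes of each column (1151 and 4306), and at a 4-fold threshold (1272 and 972). The macrophage-high count also moved with a level minimum of 200 (1394) and against the mean of the 4 macrophage columns (3689). Under the other settings (median-of-ratios scaling, 1 or 50 counts added, a minimum of 10 or none, each macrophage group left out, day 2 groups alone) the counts were 2429 to 3347 and 1796 to 2938. The neutrophil-high share of calls was 54.7% as reported and 20.0% to 63.2% over all settings. The 25 furthest genes each way kept their call in all 15 alternatives. They were chosen for the largest ratios, far from either fold threshold, so this was nearly fixed by the choice and is no support for the calls. The set itself changed: 17 neutrophil-high and 15 macrophage-high ones were shared with 1 count added, 20 and 17 with 50 added, 23 and 15 without day 2 Ly6Chigh cells, and 23 and 12 against the mean of the macrophage columns. Printed folds move with the scaling: of 66 log2 ratios checked, 60 moved by more than 1.5-fold at equal totals, 33 with 50 counts added and 33 against the mean, as S100a9 did (10.67 as reported, 9.62 at equal totals). Of the 33 lists, 8 had more neutrophil-high than macrophage-high calls as deposited and fewer at equal totals (transcription factors, oxidative burst, eicosanoid synthesis, glycolysis, hypoxia, interferon, proteases, iron). Against the highest macrophage column, the survival median was 0.85 and -0.22, the glycolysis median 0.45 and -0.57, and genes near the threshold also changed sign (Pdcd10 1.00 and -0.03, Alox5ap 0.76 and -0.29). With 1 mean per group, no replicate could be left out. No paired analysis was possible because the columns used carry no replicate numbers.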
